A study of Homo sapiens with 6 samples.

Results

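The genes described are SLC3A2, the heavy chain of the CD98 amino acid transporters, and 9 other amino acid transporter genes: SLC7A1, SLC7A5, SLC7A6, SLC7A8, SLC7A11, SLC1A4, SLC1A5, SLC38A1 and SLC38A2. They were taken by symbol from a table of 60606 genes, in which each of the 10 symbols stands once, and all 10 passed the filter on low values. RNA was sequenced from 3 irradiated and 3 control tumors grown under the skin of NOD/SCID/IL2Rγ-null (NSG) mice, which lack T, B and natural killer cells, from unmodified MDA-MB-231 cells, an established human breast cancer line without estrogen receptor. Irradiated tumors had received 1 local X-ray dose of 10 Gy once they measured about 800 mm3 and were taken 3 days after it, and control tumors were not irradiated. The volume and collection time of the control tumors, the age of the mice and whether each tumor came from its own mouse are not given in the labels, so p-values measure only the spread between these samples.

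Amino acids cross the plasma membrane through families of solute carriers that exchange or import groups of related amino acids. SLC3A2 does not itself move amino acids across the membrane. It is a glycoprotein that binds a light chain of the SLC7 family through a disulfide bond and carries it to the cell surface, and the light chain decides which amino acids are exchanged. The SLC1 and SLC38 carriers work without a heavy chain, and the amino acids that they bring in can be traded by the CD98 pairs for leucine and other essential amino acids, which signal to the growth kinase mTORC1.

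Levels are TPM (transcript abundance scaled for gene length and for the library's total), as deposited by the authors, so levels of different genes can be set side by side. Differences were taken as irradiated over control in log2(TPM + 1), a scale that shrinks the change of low genes, and their adjusted p-values come from limma over the 14140 genes that averaged 1 TPM or more. A gene is said to rise or fall only where that adjusted p is under 0.05, a threshold that 2.98% of all genes tested passed, 1.37% upward and 1.61% downward. TPM values hold no read counts, so the depth behind each value is unknown. In bulk tumors, a lower level from fewer cells of a type and from less RNA per cell cannot be told apart.

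All 12 genes listed as expressed by the line were at 39.2 TPM or more in every tumor. VIM, the intermediate filament of mesenchymal cells, was at 3148 to 3685 TPM in irradiated tumors and at 3797 to 5283 TPM in control tumors. Of 8 genes listed as low or absent in the line, the hormone receptors ESR1 and PGR were at no more than 0.32 TPM in any tumor. CDH1 and KRT5 were at no more than 0.71 TPM. The other genes of that list were not absent, with ERBB2 at 25.4 to 40.7 TPM, EPCAM at 2.90 to 5.10 TPM, GATA3 at 1.91 to 4.30 TPM and FOXA1 at 1.59 to 4.34 TPM. Control tumor 2 stood apart from the others, with ribosomal protein genes at 25.4% of its TPM, against 20.1% to 20.9% in the irradiated tumors and 18.4% and 19.0% in the other control tumors. The share of mitochondrially encoded genes was 11.7%, 10.6% and 11.4% in irradiated tumors and 9.24%, 7.58% and 10.5% in controls, higher in every irradiated tumor. In irradiated tumors, 3 of 16 muscle and 3 of 9 fibroblast markers tested fell, beside 1.61% of all genes tested. In limma, 0 of the 4 endothelial and 5 leukocyte markers tested passed (2 of each at an unadjusted p under 0.05). All 16 muscle and 8 of the 9 fibroblast markers had an unadjusted limma p under 0.05, beside 20.5% of all genes tested. Of these markers, PDGFRB and COL6A3 were higher in irradiated tumors and the others lower. Every irradiated tumor lay below every control for 13 muscle and 6 fibroblast markers, beside 15% of all genes tested. The 18 skeletal muscle markers summed to 23.1 to 243.9 TPM in irradiated tumors and 342.6 to 890.8 TPM in controls, and the 12 fibroblast markers to 139.0 to 227.5 TPM in irradiated tumors and 488.5 to 1030 TPM in controls, with no marker of these lists listed at 0 in all tumors. The count of muscle markers that fell was 0 without irradiated tumor 1 or 3, without control tumor 1 or 3, without a filter and with a pseudocount of 5 TPM. It was 1 without control tumor 2, with a pseudocount of 0.1 TPM and without trend. It was 2 at a minimum mean of 5 TPM and with a replicate block, 6 with control tumor 2 and irradiated tumor 2 both left out, and 8 without irradiated tumor 2. The count of fibroblast markers that fell was 0 without irradiated tumor 1 or 3, without a filter and with both tumors 2 left out. It was 1 without control tumor 1 and 2 without control tumor 3. COL1A1, COL1A2 and COL3A1 made up most of the fibroblast sum, while PDGFRB was at 8.09 ± 4.34 TPM in irradiated tumors and 3.51 ± 1.42 TPM in controls and COL6A3 at 7.78 ± 7.54 TPM in irradiated tumors and 1.64 ± 0.448 TPM in controls (SD, n = 3 each). The 10 endothelial markers summed to 89.8 to 131.0 TPM in irradiated tumors and 62.7 to 82.1 TPM in controls, most of it from EGFL7 and ESAM, with PECAM1, VWF and CLDN5 at no more than 1.81 TPM in any tumor. The 13 macrophage and leukocyte markers summed to 109.2 to 209.2 TPM in irradiated tumors and 92.2 to 114.4 TPM in controls, with TYROBP, C1QA, C1QB and C1QC listed at 0 in all tumors. CD68, at 91.2 to 187.1 TPM in irradiated tumors and 74.9 to 94.2 TPM in controls, and ADGRE1 made up most of that sum, PTPRC was at no more than 0.30 TPM, and the differences of CSF1R, AIF1 and LYZ were below 0. The 6 adipocyte markers summed to at most 4.55 TPM, with LEP and ADIPOQ listed at 0 in all tumors. The tumors grew in mice, and the sources used here give no step that removes mouse reads. Whether mouse reads entered the levels of these markers or of the transporters was not tested. The part of these other cells in the transporter levels was not tested either.

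SLC3A2 rose in irradiated tumors while none of its light chains passed the test. Of the 10 genes, SLC3A2 was the only call, 0 fell, and 4 had an unadjusted p under 0.05 in limma, 3 higher and 1 lower. Over all genes tested, 20.5% had such a p, 8.93% higher and 11.5% lower in irradiated tumors. The groups did not overlap in 4 genes: SLC3A2, SLC1A4 and SLC1A5 lay higher in every irradiated tumor than in any control, and SLC38A1 lay lower. Over all genes tested, the groups did not overlap in 26.6%, with 11.6% higher and 15% lower in irradiated tumors. The median difference of the 10 genes was -0.016, beside -0.056 over all genes tested.

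**Figure D1:**
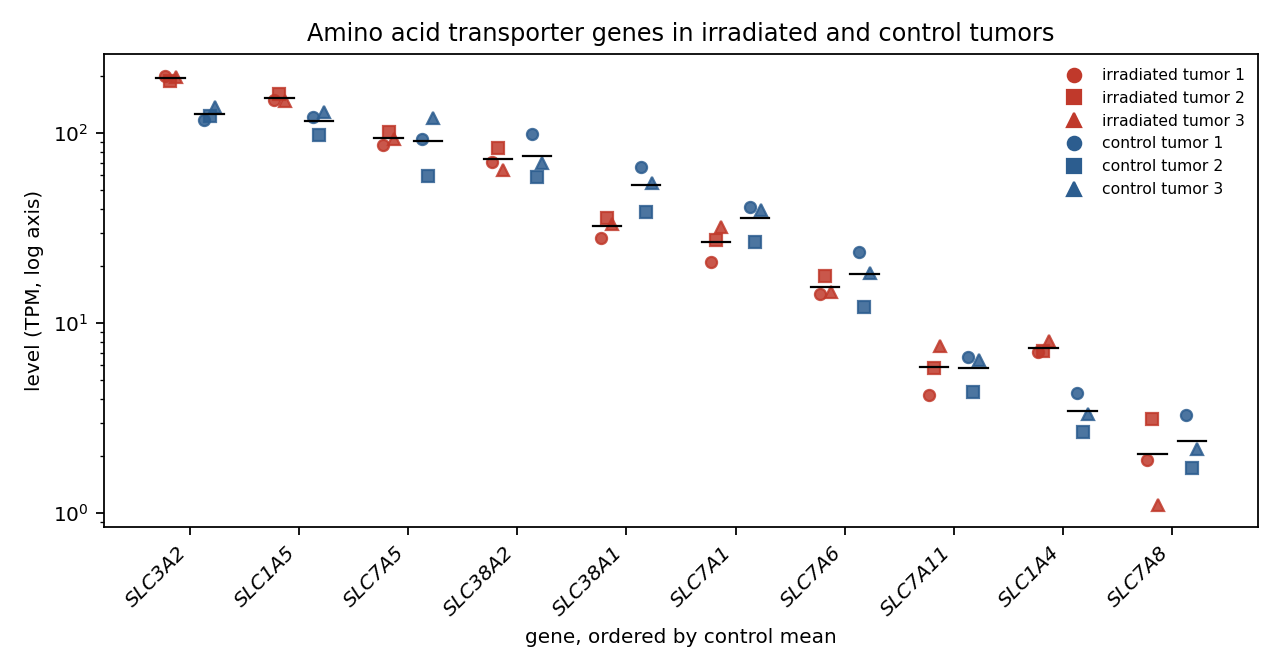
Level of each of the 10 genes in TPM on a log axis, with irradiated tumors in red to the left of control tumors in blue, 1 point per tumor and a bar at each group's mean. The 3 irradiated values lie above the 3 control values for SLC3A2, SLC1A5 and SLC1A4, and below them for SLC38A1.

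SLC3A2 lies on the plus strand of chromosome 11, from 62856102 to 62888875 (GRCh38, GENCODE release 29, identifier ENSG00000168003), and no exon of another gene overlaps its exons. Its level was 201.0, 187.4 and 196.8 TPM in irradiated tumors, against 116.9, 122.9 and 137.6 TPM in controls. Every irradiated tumor was thus above every control, and the values within a group lay close together. The means were 195.1 ± 6.99 TPM in irradiated tumors and 125.8 ± 10.6 TPM in controls (SD, n = 3 each), a ratio of 1.55. The difference was 0.63 (SE 0.12, 95% interval 0.35 to 0.91, limma adjusted p = 0.0356). Its call was lost on leaving out any single tumor but control tumor 2 (adjusted p of at most 0.145), without the filter on low values (0.0685), without trend (0.0887) and with a replicate block (0.101), while its difference stayed between 0.58 and 0.70 in every alternative fitted.

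**Figure D2:**
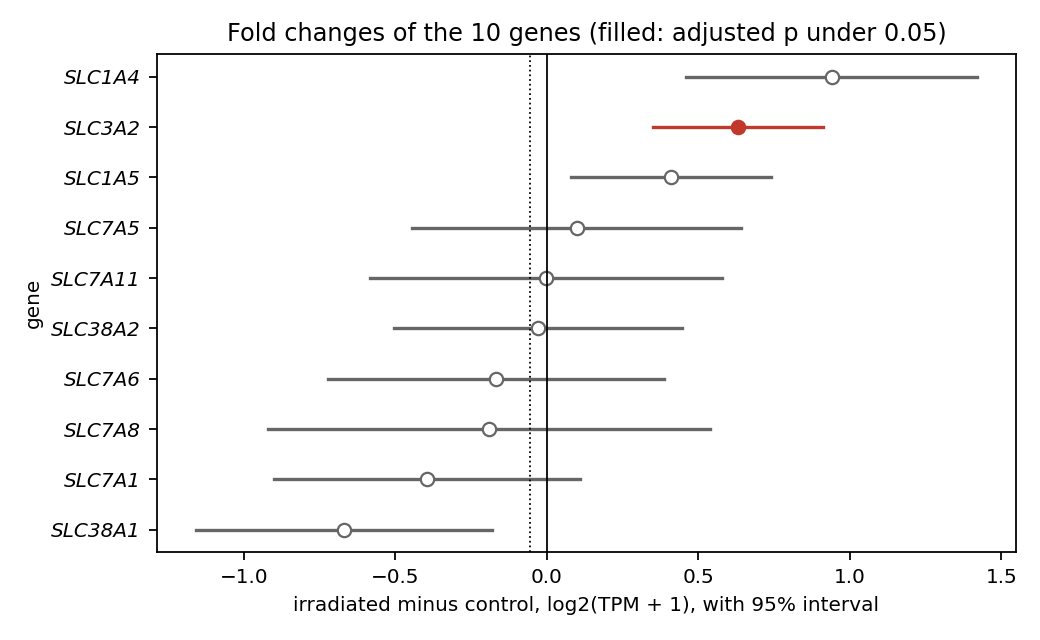
Difference of each of the 10 genes, irradiated minus control in log2(TPM + 1), with its 95% limma interval. The filled point marks SLC3A2, at 0.63, the only gene past an adjusted p of 0.05, and the dotted line marks the median of all genes tested, at -0.056.

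Promoters of the members are shown because the transcription factor ATF4, which switches on transporter genes when amino acids are short, binds a composite C/EBP-ATF element. RefSeq (GRCh38.p14) gives 18 windows from 250 bases before to 50 bases after a start site for 9 of the 10 members, and none was matched for SLC7A11. The letters TGATGNAAN, searched on both strands, were in 5 of the 18 windows, 1 window each for 5 members, and in 3.61% of all 35116 promoter windows. The letters TGACNNNGC, the core of the antioxidant element bound by NRF2, were in 5 of 18 member windows and in 13.3% of all. The MYC-type E-box CACGTG was in 3 of 18 and in 7.26% of all, and the AP-1 heptamer TGACTCA in 2 of 18 and in 4.95% of all. The 5 windows with TGATGNAAN follow, 5′ to 3′, and capitals mark matches to TGATGNAAN, TGACNNNGC or TGACTCA on either strand.
SLC3A2 promoter, chr11:62881449-62881748, plus strand: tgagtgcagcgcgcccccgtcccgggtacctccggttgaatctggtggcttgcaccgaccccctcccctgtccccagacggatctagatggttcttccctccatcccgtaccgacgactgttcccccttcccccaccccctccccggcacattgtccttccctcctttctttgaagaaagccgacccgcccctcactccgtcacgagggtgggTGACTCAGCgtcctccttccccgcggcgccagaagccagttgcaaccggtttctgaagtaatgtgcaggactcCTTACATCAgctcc
SLC1A4 promoter, chr2:64989149-64989448, plus strand: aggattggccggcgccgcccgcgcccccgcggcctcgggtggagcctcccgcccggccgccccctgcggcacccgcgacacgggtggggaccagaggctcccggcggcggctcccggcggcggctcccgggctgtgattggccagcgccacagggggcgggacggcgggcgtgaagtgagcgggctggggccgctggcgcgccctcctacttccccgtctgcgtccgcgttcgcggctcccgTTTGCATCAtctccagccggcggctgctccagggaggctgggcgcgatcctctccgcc
SLC1A5 promoter, chr19:46784765-46785064, minus strand: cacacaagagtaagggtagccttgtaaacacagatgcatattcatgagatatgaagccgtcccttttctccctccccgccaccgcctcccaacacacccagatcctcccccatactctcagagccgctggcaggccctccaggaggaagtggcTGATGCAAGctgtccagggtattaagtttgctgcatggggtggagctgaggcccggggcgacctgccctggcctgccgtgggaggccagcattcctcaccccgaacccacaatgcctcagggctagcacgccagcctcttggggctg
SLC38A1 promoter, chr12:46266467-46266766, minus strand: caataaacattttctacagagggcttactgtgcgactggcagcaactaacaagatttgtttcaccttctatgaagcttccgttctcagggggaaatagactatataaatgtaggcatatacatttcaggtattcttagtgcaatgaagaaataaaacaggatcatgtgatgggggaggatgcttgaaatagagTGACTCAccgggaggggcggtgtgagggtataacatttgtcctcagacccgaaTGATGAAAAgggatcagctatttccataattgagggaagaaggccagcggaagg
SLC7A1 promoter, chr13:29595639-29595938, minus strand: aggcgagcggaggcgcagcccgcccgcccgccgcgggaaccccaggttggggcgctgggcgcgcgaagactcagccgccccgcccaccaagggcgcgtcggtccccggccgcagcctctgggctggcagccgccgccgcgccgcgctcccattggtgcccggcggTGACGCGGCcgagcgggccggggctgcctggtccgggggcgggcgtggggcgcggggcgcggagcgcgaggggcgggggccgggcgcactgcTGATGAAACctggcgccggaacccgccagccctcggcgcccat

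In the SLC3A2 window the antioxidant letters and the AP-1 heptamer are the same match, and the C/EBP-ATF letters lie after the start site on the other strand. The SLC1A4 window has the C/EBP-ATF letters close to the start site and no other match. The SLC38A1 window has the AP-1 heptamer and the C/EBP-ATF letters apart from each other. The 5 genes with these letters did not move one way: SLC3A2, SLC1A4 and SLC1A5 had differences above 0, and SLC38A1 and SLC7A1 below 0. These matches are letters in a window, several genes have more than 1 start site, and which start site was used was not measured.

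Among the light chains, SLC7A5 (LAT1), the exchanger of leucine and other large neutral amino acids, held most of the signal and had nearly equal means. It was at 87.1, 101.4 and 93.3 TPM in irradiated tumors, against 93.7, 59.8 and 119.8 TPM in controls. The control values spanned the irradiated ones, with control tumor 2 lowest and control tumor 3 highest. The difference was 0.097 (95% interval -0.45 to 0.64, limma adjusted p = 0.853), an interval too wide to show that the level stayed the same, and it was -0.17 without control tumor 2. SLC7A5 (ENSG00000103257) lies on chromosome 16, from 87830023 to 87869488, and its pseudogenes took at most 1.44 TPM in any tumor.

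SLC7A6 (y+LAT2), which exchanges cationic amino acids such as arginine for neutral ones, was at 14.3, 17.8 and 14.7 TPM in irradiated tumors, against 23.8, 12.2 and 18.4 TPM in controls. The groups overlapped, and the difference was -0.17 (95% interval -0.72 to 0.39, limma adjusted p = 0.732). Its exons overlap those of SLC7A6OS on the opposite strand, a gene at up to 16.6 TPM, so reads could be split between them if strand was not used.

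SLC7A11 (xCT), which brings in cystine for glutathione in exchange for glutamate, was at 4.19, 5.79 and 7.60 TPM in irradiated tumors, against 6.63, 4.37 and 6.44 TPM in controls. Its difference was -0.0028 (95% interval -0.58 to 0.58, limma adjusted p = 0.997). SLC7A8 (LAT2), a second exchanger of neutral amino acids with a broader range, was lowest of the 10 genes in both groups, at 1.91, 3.12 and 1.10 TPM in irradiated tumors and 3.30, 1.73 and 2.19 TPM in controls. Its difference was -0.19 (95% interval -0.92 to 0.54, limma adjusted p = 0.771). The groups overlapped for each of these low genes.

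The other known partners of SLC3A2 added little. SLC7A7 (y+LAT1) was at 1.54 to 2.75 TPM in irradiated tumors and at 1.26 to 4.31 TPM in controls, and SLC7A10 at up to 0.10 TPM in irradiated tumors and 0.06 TPM in controls. Of the 6 light chains known to pair with SLC3A2, 5 were tested, and 0 passed in limma in either direction, with 0 also at an unadjusted p under 0.05. Their median difference was -0.015, and it lay slightly above 0 with medians of ratios (0.028), quantile normalization (0.0071) or without mitochondrially encoded and ribosomal protein genes (0.027). Over all genes tested, the median was -0.056, and -0.0033, -0.0054 and -0.018 under these 3 scalings. Leaving out control tumor 2 gave a median of -0.25, irradiated tumor 2 one of -0.15, both together one of -0.39, and control tumor 3 one of 0.070. The light chains together were at 109.7, 130.9 and 118.3 TPM in irradiated tumors, against 129.1, 79.4 and 151.2 TPM in controls, with means of 119.6 ± 10.7 and 119.9 ± 36.8 TPM (SD, n = 3 each). SLC7A5 made up 79.4%, 77.4% and 78.9% of that sum in irradiated tumors and 72.6%, 75.3% and 79.2% in controls.

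**Figure D3:**
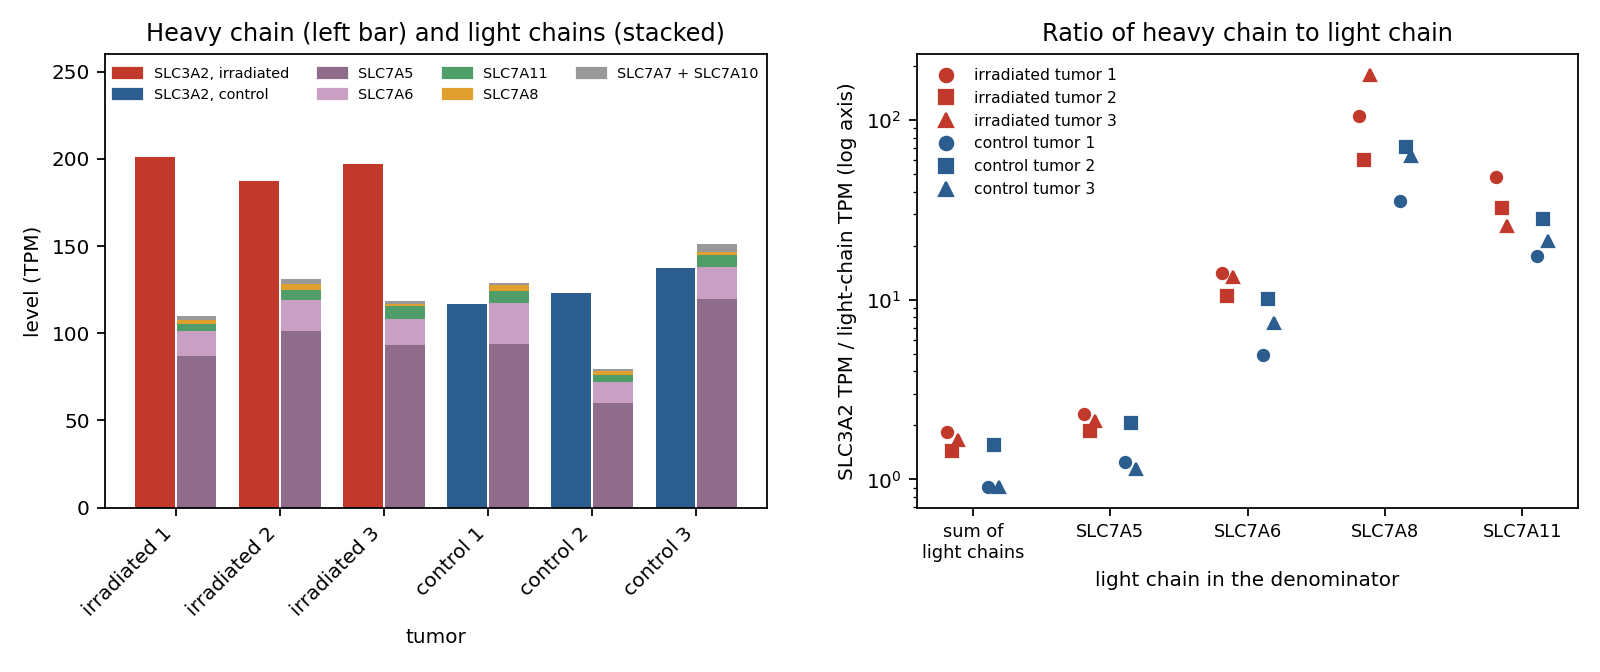
On the left, SLC3A2 (left bar of each tumor) beside its stacked light chains in TPM, with the irradiated tumors before the controls. On the right, the ratio of SLC3A2 to the summed light chains and to single light chains in each tumor on a log axis, where control tumor 2 (blue square) lies among the irradiated tumors for the sum, at 1.55.

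The heavy chain was set against its partners within each tumor, which asks whether SLC3A2 and its light chains moved together. The ratio of SLC3A2 to the summed light chains was 1.83, 1.43 and 1.66 in irradiated tumors, against 0.906, 1.55 and 0.910 in controls. Heavy-chain transcripts exceeded light-chain transcripts in all 3 irradiated tumors and, among controls, in tumor 2. The log2 ratio averaged 0.71 ± 0.18 in irradiated tumors and 0.12 ± 0.45 in controls (SD, n = 3 each). Their difference of 0.59 was not distinguishable from the spread between tumors (two-sided exact permutation p = 0.2, adjusted p = 0.25 over 5 ratios). With 3 tumors against 3 this test cannot give a p below 0.1. The overlap came from control tumor 2, at 1.55, and irradiated tumor 2, at 1.43, and leaving out either one ends it. Without control tumor 2 the difference was 0.85, with exact permutation p = 0.1, the smallest that 3 tumors against 2 allow.

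The mean log2 ratio to each single partner was higher in irradiated tumors. All 5 ratios share SLC3A2, which rose, so they are not independent results. SLC3A2 over SLC7A5 was 2.31, 1.85 and 2.11 in irradiated tumors, against 1.25, 2.06 and 1.15 in controls (exact permutation p = 0.2, adjusted p = 0.25, n = 3 each). SLC3A2 over SLC7A6 was 14.1, 10.5 and 13.4 in irradiated tumors, against 4.91, 10.1 and 7.47 in controls. This was the only one of the 5 ratios in which the groups did not overlap (log2 difference 0.81, exact permutation p = 0.1, adjusted p = 0.25, n = 3 each). For SLC7A11 the log2 ratio differed by 0.64 (exact permutation p = 0.2, adjusted p = 0.25) and for SLC7A8 by 0.95 (exact permutation p = 0.3, adjusted p = 0.3).

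SLC7A1 (CAT1), the importer of arginine, lysine and ornithine, belongs to the SLC7 family but needs no heavy chain. It was at 21.1, 27.3 and 32.2 TPM in irradiated tumors, against 41.0, 26.8 and 39.4 TPM in controls. Control tumor 2 lay among the irradiated tumors. The difference was -0.40 (95% interval -0.90 to 0.11, limma adjusted p = 0.350), and -0.59 without control tumor 2 (adjusted p = 0.124).

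Of the SLC1 carriers, SLC1A4 (ASCT1), an exchanger of alanine, serine and cysteine, had the largest difference upward of the 10 genes. It was at 7.10, 7.16 and 8.02 TPM in irradiated tumors, against 4.32, 2.68 and 3.32 TPM in controls. The groups did not overlap, with means of 7.43 ± 0.515 TPM in irradiated tumors and 3.44 ± 0.827 TPM in controls (SD, n = 3 each), a ratio of 2.16. Its difference of 0.94 (SE 0.21, 95% interval 0.46 to 1.42) missed the threshold at a limma adjusted p = 0.0549. It passed with medians of ratios (0.99, adjusted p = 0.0258), with quantile normalization (1.01, adjusted p = 0.0202) and without mitochondrially encoded and ribosomal protein genes (1.03, adjusted p = 0.0373), and in none of the other alternatives. SLC1A4 (ENSG00000115902) lies on the plus strand of chromosome 2, from 64988477 to 65023865.

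SLC1A5 (ASCT2), an exchanger that brings in glutamine, was the second most abundant of the 10 genes. It was at 150.0, 161.8 and 148.6 TPM in irradiated tumors, against 121.5, 97.3 and 129.5 TPM in controls, and the groups did not overlap. The difference of 0.41 (95% interval 0.079 to 0.74) did not pass over all genes (limma adjusted p = 0.159), and it was 0.29 without control tumor 2. SLC1A5 (ENSG00000105281) lies on the minus strand of chromosome 19, from 46774883 to 46788594.

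The SLC38 carriers of system A import glutamine and alanine together with sodium. SLC38A1 (SNAT1) was at 28.0, 35.6 and 33.4 TPM in irradiated tumors, against 66.4, 38.5 and 54.5 TPM in controls. The groups did not overlap, but control tumor 2 and irradiated tumor 2 were close. The difference of -0.67 (95% interval -1.16 to -0.18) was the largest downward of the 10 genes and did not pass (limma adjusted p = 0.130). Without control tumor 2 it was -0.88 and passed (adjusted p = 0.0429), the only one of 17 alternatives in which it did. SLC38A2 (SNAT2), its neighbour on chromosome 12 and the member of the pair best known to be induced when amino acids are short, was at 70.7, 83.6 and 64.1 TPM in irradiated tumors, against 98.8, 58.5 and 69.7 TPM in controls. Its difference was -0.030 (95% interval -0.51 to 0.45, limma adjusted p = 0.953). Within each tumor, SLC38A1 was 0.396, 0.426 and 0.522 of SLC38A2 in irradiated tumors and 0.672, 0.657 and 0.783 of it in controls.

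The glutamine carriers SLC1A5 and SLC38A1 had differences of opposite sign. Their ratio, chosen after the values were seen and therefore not tested, was 5.36, 4.54 and 4.44 in irradiated tumors, against 1.83, 2.53 and 2.38 in controls. Control tumor 2 lay close to control tumor 3 in this ratio, unlike in the ratios of SLC3A2 to the summed light chains and to SLC7A5.

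**Figure D4:**
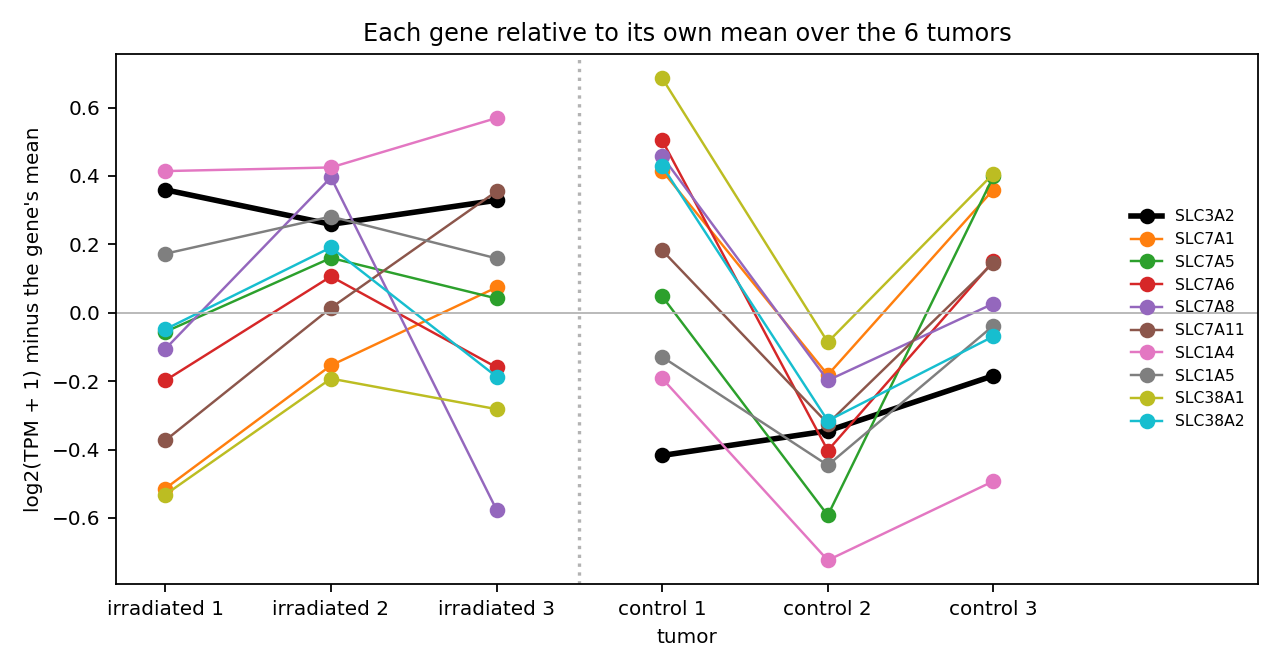
log2(TPM + 1) of each gene minus its own mean over the 6 tumors, with irradiated tumors on the left and SLC3A2 in black; lines join the values of a gene within a group, and tumors have no order. All genes but SLC3A2 have their lowest control value in control tumor 2.

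Control tumor 2 set much of the spread among the members. In all 9 genes other than SLC3A2, the lowest control value was that of tumor 2, whereas SLC3A2 was lowest in control tumor 1. The share of all genes that were lowest in control tumor 2 was not counted, so this is not shown to be particular to the members. Control tumor 2 also had the fewest genes at 1 TPM or more, 13392. Without it the median difference over all genes tested was -0.13, against -0.056 with all tumors. The 10 genes summed to 585.3, 631.0 and 599.8 TPM in irradiated tumors, against 576.3, 424.8 and 580.8 TPM in controls. Without control tumor 2 the members called were SLC3A2 and SLC38A1.

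In order of mean level, irradiated tumors had SLC3A2, SLC1A5, SLC7A5, SLC38A2, SLC38A1, SLC7A1, SLC7A6, SLC1A4, SLC7A11 and SLC7A8. Neighbours in that order overlapped only for SLC38A1 with SLC7A1 and SLC1A4 with SLC7A11. Controls had the same order except that SLC7A11 stood before SLC1A4. There, SLC3A2 overlapped SLC1A5, SLC1A5 overlapped SLC7A5, SLC7A5 overlapped SLC38A2, SLC38A2 overlapped SLC38A1, SLC38A1 overlapped SLC7A1, and SLC1A4 overlapped SLC7A8. SLC3A2 was thus clear of the next gene in irradiated tumors, with 187.4 TPM at its lowest against 161.8 TPM for SLC1A5 at its highest, but not in controls.

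Genes with a pattern like that of SLC3A2 were sought among 7628 other genes that averaged 10 TPM or more, by the root mean square difference between log2(TPM + 1) values centred on each gene's mean over the 6 tumors. The closest were GRINA, a regulator of calcium in the endoplasmic reticulum, at 0.037, the ubiquitin gene UBB at 0.060, the chondroitin synthesis factor CHPF at 0.069, the immunoproteasome subunit PSMB8 at 0.071 and RUSF1 at 0.077, beside a median of 0.422 over the genes compared. GRINA was at 250.9, 222.6 and 240.9 TPM in irradiated tumors, against 142.2, 141.5 and 163.7 TPM in controls. GRINA, UBB and PSMB8 each overlap another gene on the opposite strand that reached 97.3, 1358 and 143.6 TPM. Of the members, SLC1A5 was the closest to SLC3A2, at place 223 with 0.173, and SLC7A5 stood at place 3004 with 0.383. The members under 10 TPM were not ranked.

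Other amino acid transporters, including those of the lysosome, held 2 calls, both upward. Of 40 such genes, 20 were tested, 2 rose and 0 fell, beside 1.37% and 1.61% of all genes tested. An unadjusted limma p under 0.05 was found for 5, beside 20.5% of all. Their median difference was 0.14. The 40 include SLC7A7, which was tested, and SLC7A10, which was not, both also counted above as light chains. SLC15A3, a lysosomal carrier of histidine and short peptides, rose, with 16.0, 7.61 and 11.6 TPM in irradiated tumors, against 0.76, 1.51 and 3.07 TPM in controls (difference 2.23, limma adjusted p = 0.0211). SLC6A9, the glycine carrier GLYT1, rose, with 11.4, 8.68 and 9.50 TPM in irradiated tumors, against 4.70, 2.81 and 3.73 TPM in controls (1.21, limma adjusted p = 0.0292). Their exons overlap those of TMEM132A and CCDC24 on the opposite strand, at up to 124.2 and 20.2 TPM, and the list held 0 calls without control tumor 1, any one irradiated tumor, both tumors 2 or a filter on low values, where both genes had an adjusted p of 0.0932. Without control tumor 2 its median was -0.0089, and with both tumors 2 left out it was -0.082. SLC38A9, the lysosomal arginine sensor, was at 8.77 ± 1.10 TPM in irradiated tumors and 7.16 ± 1.09 TPM in controls (SD, n = 3 each; limma adjusted p = 0.469).

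Genes of the ATF4 response, which is driven by the factor known to induce SLC3A2, SLC7A11, SLC1A4 and SLC38A2 when amino acids run short, lay mostly above 0. Of 28 tested, ATF4 itself included, 2 rose and 0 fell, beside 1.37% and 1.61% of all genes tested. An unadjusted limma p under 0.05 was found for 10, beside 20.5% of all. The difference was above 0 in 20 of the 28, beside 44.3% of all genes tested. The groups did not overlap in 9 upward and 2 downward, beside 11.6% upward and 15% downward of all genes tested. Their median difference was 0.29, beside -0.056 over all genes. NUPR1, a stress-induced chromatin protein, rose to 14.98, 7.11 and 14.2 TPM in irradiated tumors, against 1.07, 0.37 and 0.24 TPM in controls (3.04, limma adjusted p = 0.00335). This call held in all 17 alternatives. GDF15, a secreted stress cytokine, rose, with 7.89 ± 1.95 TPM in irradiated tumors and 2.67 ± 0.561 TPM in controls (SD, n = 3 each; 1.26, limma adjusted p = 0.0323), and its call held in 8 of 17 alternatives. It was lost on dropping any single tumor but control tumor 2, with both tumors 2 left out, without a filter (adjusted p = 0.110), at a minimum mean of 5 TPM (0.0573) and with a replicate block (0.0654).

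Other known ATF4 targets did not pass. CHAC1, which breaks down glutathione, was at 17.1 ± 3.93 TPM in irradiated tumors and 6.69 ± 2.96 TPM in controls (SD, n = 3 each; 1.28, limma adjusted p = 0.0613), and it passed under each of the 3 other scalings. TRIB3, a pseudokinase that feeds back on ATF4, was at 14.1 ± 0.603 TPM in irradiated tumors and 8.97 ± 2.08 TPM in controls (0.62, limma adjusted p = 0.127). ASNS, asparagine synthetase, was at 48.3 ± 12.6 TPM in irradiated tumors and 33.1 ± 6.01 TPM in controls (0.52, limma adjusted p = 0.223). It shares exonic bases with another gene on its strand that reached 39.3 TPM. ATF4 itself, which is controlled largely at translation, was at 400.4 ± 68.8 TPM in irradiated tumors and 438.8 ± 55.6 TPM in controls (-0.14, limma adjusted p = 0.670).

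Targets of NRF2, the oxidative stress factor known to induce SLC7A11, held 0 calls of 19 in limma, with 4 at an unadjusted p under 0.05, beside 20.5% of all genes tested. Their median difference was -0.065, which was 0.0051 without irradiated tumor 1. NFE2L2, which encodes NRF2, was at 24.4 ± 1.02 TPM in irradiated tumors and 25.6 ± 6.96 TPM in controls, and GCLM, the modifier subunit of glutathione synthesis, at 16.3 ± 4.52 TPM in irradiated tumors and 16.9 ± 1.13 TPM in controls (limma adjusted p = 0.941 and 0.862). OSGIN1 and ME1 had the smallest p of the list and differences of 0.73 and -0.57 (limma adjusted p = 0.138 and 0.172). Genes of glutathione and cystine use held 0 calls of 13 in limma, with 3 at an unadjusted p under 0.05, beside the same 20.5%, and a median of 0.071. CHAC1, which is also in this list, was called under the 3 other scalings. The peroxidase GPX1 there was at 839.1 ± 31.2 TPM in irradiated tumors and 631.9 ± 23.8 TPM in controls (0.41, limma adjusted p = 0.0870). Genes of glutamine, serine, glycine and leucine metabolism held 0 calls of 23 in limma, with 3 at an unadjusted p under 0.05, again beside 20.5% of all genes tested. Their median was 0.012, which was -0.092 without control tumor 2 and -0.061 without irradiated tumor 3. Among them ARG2, an arginase, had a difference of -0.56, and PYCR1, of proline synthesis, one of 0.39 (limma adjusted p = 0.169 and 0.181). The exons of ARG2 overlap those of VTI1B on the opposite strand, at up to 48.1 TPM.

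Of 35 tested genes that sense or carry the amino acid signal to mTORC1, 0 rose and 1 fell, beside 1.37% and 1.61% of all genes tested. An unadjusted limma p under 0.05 was found for 5, beside 20.5% of all. The list's median was -0.019, which lay above 0 with medians of ratios (0.039), quantile normalization (0.034) or without mitochondrially encoded and ribosomal protein genes (0.023). Over all genes tested, the median under these 3 scalings was -0.0033, -0.0054 and -0.018. RRAGB, a Rag GTPase of the lysosome, fell to 6.98, 3.96 and 3.98 TPM in irradiated tumors, against 14.5, 14.7 and 33.3 TPM in controls (-1.80, limma adjusted p = 0.0347), a call that held in 7 of 17 alternatives. It was lost on dropping any single tumor but control tumor 2, with both tumors 2 left out, with a pseudocount of 5 TPM (adjusted p = 0.0529), without a filter (0.129), without trend (0.0564) and with a replicate block (0.0596). CASTOR1, an arginine sensor, was at 11.1 ± 2.95 TPM in irradiated tumors and 4.16 ± 1.40 TPM in controls (SD, n = 3 each; 1.25, limma adjusted p = 0.0533), and it passed as the 1 rise under those 3 scalings.

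Among 18 genes listed here as partners of CD98 or its carriers at or near the cell surface, 0 rose and 1 fell, beside 1.37% and 1.61% of all genes tested. An unadjusted limma p under 0.05 was found for 6, beside 20.5% of all. Their median was 0.046, and it was -0.046 at a minimum mean of 5 TPM and -0.029 without irradiated tumor 1. The glucose transporter SLC2A1 fell, with 96.5 ± 22.6 TPM in irradiated tumors and 196.3 ± 23.6 TPM in controls (SD, n = 3 each; -1.03, limma adjusted p = 0.0286), a call that held in 8 of 17 alternatives. It was lost on dropping any single tumor but irradiated tumor 2, with both tumors 2 left out, without a filter (adjusted p = 0.0941), with medians of ratios (0.0539) and without trend (0.0610). BSG (CD147), the chaperone of lactate carriers, was at 1447, 1292 and 1073 TPM in irradiated tumors, against 931.9, 948.5 and 947.2 TPM in controls, and the groups did not overlap (0.42, limma adjusted p = 0.135). ITGB1, the integrin chain whose signalling CD98 supports, was at 208.3 ± 27.8 TPM in irradiated tumors and 265.8 ± 51.1 TPM in controls (-0.34, limma adjusted p = 0.307).

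Genes of transporter trafficking and ubiquitination held 0 calls of 14 in limma, with 2 at an unadjusted p under 0.05, beside 20.5% of all genes tested. Their median was -0.15. TXNIP, an arrestin-like protein that takes glucose carriers off the surface, was at 111.0 ± 19.0 TPM in irradiated tumors and 52.9 ± 24.0 TPM in controls (1.14, limma adjusted p = 0.0870). NEDD4L, a ubiquitin ligase of membrane carriers, was at 24.7 ± 2.95 TPM in irradiated tumors and 40.6 ± 14.1 TPM in controls (-0.65, limma adjusted p = 0.169).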

How the data were processed

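Values are TPM per gene as deposited by the authors, to 2 decimals, in 1 table with 3 irradiated and 3 control columns named as in the labels. Total RNA went into TruSeq RNA libraries, per the labels' protocols. HISAT2, RSEM, StringTie and the hg38 build appear in the submitters' processing notes. The sources used here give no versions, annotation, strand setting or step that removes mouse reads, and depth is unknown. Columns fell short of the full TPM total by 0.523% to 0.774% in irradiated tumors and 0.143% to 0.198% in controls.

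The test of irradiated against control tumors was limma's (3.58.1, R 4.3.3; eBayes with trend) on log2(TPM + 1) over genes averaging 1 TPM or more, two-sided, with Benjamini-Hochberg adjustment at 0.05, and the fit was tested on simulated data. Ratios of SLC3A2 to light chains used an exact permutation test over tumors, adjusted over 5 ratios. Coordinates and exon overlaps are from GENCODE release 29 (58396 of 60606 identifiers found), and promoters from RefSeq (GRCh38.p14). No sample was left out. Not every exon overlap of the members and other named genes is reported here.

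The members, gene lists and naming rule were chosen with earlier results of these data known. The rule takes all members, up to 4 called genes of each list or 2 by smallest p where it held none, the 5 genes closest to SLC3A2, and ATF4, ASNS, TRIB3, NFE2L2, GCLM, BSG, ITGB1 and SLC38A9. CHAC1, CASTOR1, the marker genes and the SLC1A5 to SLC38A1 and SLC38A1 to SLC38A2 ratios were added after their values were seen. Alternatives were pseudocounts, filters, scalings, no trend, a replicate block, pseudogenes added, and tumors left out with the genes tested kept fixed.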

Additional observations from a re-analysis of the deposited data

How the results depend on the processing

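SLC3A2 kept its direction in all alternatives. Its difference of 0.63 was no longer past the threshold without a filter, without trend and with a replicate block (0.63 in each), with both tumors numbered 2 left out (0.65, chosen after seeing the data), and in 5 of the 6 fits that leave out 1 tumor (0.58 to 0.70), which also have fewer samples. The count of members called, 1, was 0 in those settings and 2 with medians of ratios, with quantile normalization and without mitochondrially encoded and ribosomal protein genes, where SLC1A4 passed, and 0 to 2 with 1 tumor left out. Over all genes the 421 calls became 133 without a filter, 279 without trend, 185 with a replicate block, 66 with both tumors 2 left out, and 107 to 669 with 1 tumor left out. Without control tumor 2, 29.9% of calls were upward, against 46.1% with all tumors. The log2 ratio of SLC3A2 to its light chains, 0.59, ranged from 0.46 to 0.85 with 1 tumor left out and was 0.59 with a replicate block, with differences within replicate numbers (exact p = 0.5, where 0.25 is the smallest possible). Deviations of same-numbered tumors correlated at -0.043, -0.046 and -0.059, so the numbers were not taken as pairs.

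Directions turned for members near 0, and the cause was not tested. The median over all genes tested, -0.056, moved as well under the 3 scalings. It was -0.0033 with medians of ratios, -0.0054 with quantile normalization and -0.018 without mitochondrially encoded and ribosomal protein genes. SLC7A11 was at 0.0011 with a pseudocount of 5 TPM, 0.049 with medians of ratios, 0.059 with quantile normalization and 0.035 without mitochondrially encoded and ribosomal protein genes, and SLC38A2 at 0.029, 0.030 and 0.013 in the last 3 of these. SLC7A5 was at -0.23 with both tumors 2 left out. With 1 tumor left out, SLC7A5 ranged from -0.17 to 0.32, SLC7A6 from -0.41 to 0.042, SLC7A8 from -0.44 to 0.050, SLC7A11 from -0.18 to 0.18 and SLC38A2 from -0.19 to 0.18. Among the other genes, SLC7A7 was at 0.021 with a pseudocount of 0.1 TPM and at 0.028, 0.0071 and 0.027 under the 3 scalings, where NFE2L2 was at 0.021, 0.0085 and 0.0050. With 1 tumor left out, SLC7A7 ranged from -0.25 to 0.37, NFE2L2 from -0.21 to 0.16, ATF4 from -0.23 to 0.012 and GCLM from -0.28 to 0.094. Precision is limited by 3 tumors a group and an unknown depth.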
